A study of Saccharomyces cerevisiae with 6 samples.

Results

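In budding yeast, Saccharomyces cerevisiae, 10 genes that make, move or consume glycerol were compared between cells treated with zymolyase and untreated cells. They are GPD1, GPD2, GPP1 and GPP2 (synthesis), STL1 and FPS1 (transport), and GUT1, GUT2, DAK1 and DAK2 (use). The genes were grouped by function, with earlier results of these data known, and each was represented by the 1 probe set annotated to it alone. All 10 were on the array, and 9 were among the 5394 probe sets, for 5349 genes, that were bright enough to be tested. DAK2 was too dim and is described without a test.

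The Zym samples are the strain labelled BY4743, cultured for 2 days at 25 °C in rich medium and then given zymolyase, an enzyme mixture that digests wall glucan, at 30 U/ml for 10 min at 37 °C. The Control_untreated samples are the same strain and culture without the enzyme. Each group held 3 samples, and each sample had its own Affymetrix array, for 6 arrays in all. Per the labels the strain of both groups is an a/α diploid that carries his3Δ1, leu2Δ0, met15Δ0, ura3Δ0 and lys2Δ0 mutations. Marker signals, given below, did not bear this out. The labels do not give the temperature of the untreated cells during the digestion, so the enzyme and a step to 37 °C cannot be told apart for any gene. Separate cultures are not stated for the replicates, and p-values then reflect no more than the spread among these samples, which may be technical. The question was which of these transcripts differ after wall digestion.

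Glycerol is the main compatible solute of budding yeast, the compound that the cell accumulates to hold water when the medium becomes more concentrated. It is made from the glycolytic intermediate dihydroxyacetone phosphate, first by reduction to glycerol-3-phosphate with NADH and then by removal of the phosphate, and the first step also reoxidises cytosolic NADH. Glycerol leaves through the Fps1 channel and is taken up by the Stl1 symporter. Cells that grow on glycerol phosphorylate it and oxidise the product at the mitochondrial inner membrane. The high-osmolarity glycerol (HOG) pathway, which ends in the kinase Hog1, is known to induce several of the synthesis genes, and wall digestion by zymolyase is known to engage this pathway together with the wall integrity kinase Slt2.

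Levels are given as MAS5 signals, an intensity, with ± for the SD over 3 arrays. Background was taken as the 99th percentile of probe sets for a second species on the same array, between 21.0 and 31.4. On the array 6 second-species probe sets carry the same gene names as glycerol genes, and 1 of their 36 values lay above it. Log2 signals of arrays correlated at 0.985 to 0.987 within a group and at 0.938 to 0.947 between groups. Of all tested probe sets, 71.5% passed the limma test at an adjusted p of 0.05, with 32.6% higher and 38.9% lower in Zym, so a call by itself is common here. Fold changes rose with coding length across the tested probe sets (Spearman's rho 0.41 across genes, which are not independent replicates). The 3′ over 5′ signal ratio of control probe sets, which rises when RNA is shortened, was higher in every Zym array than in every Control_untreated array for 6 of 8 genes. For ACT1 it was 2.33 to 2.54 in Zym and 1.86 to 2.18 in Control_untreated. The change of each glycerol gene is also given with the length trend removed, as are changes of other named genes where this altered a call or a direction. Whether the length trend is tied to RNA shortening was not tested, nor was any effect of RNA shortening on these genes. The strain that the labels give was not borne out by the marker signals, and its identity was not settled. Signals of the α-type genes MF(ALPHA)1, MF(ALPHA)2, STE3 and SAG1 averaged between 1926 and 13569, those of the a-type genes MFA1, MFA2, STE2, AGA2 and BAR1 between 2.07 and 48.4. HO and RME1, which a/α diploids repress, averaged 1033 and 1836 in Zym and 1214 and 2049 in Control_untreated. The HIS3, LEU2, URA3, MET17 (MET15) and LYS2 probe sets averaged between 469 and 3144.

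Transcripts of all 9 tested glycerol genes were higher in Zym, those for use and transport as well as those for synthesis. GUT2, GPD2, GUT1 and FPS1 were more than 2-fold higher, GPD1 and DAK1 rose by 1.84-fold and 1.63-fold, and GPP1 and GPP2 rose least. In each of the 9, every Zym array lay above every Control_untreated array, which held for 33.4% of all tested probe sets. The share of all tested probe sets that passed and were at least 2-fold higher was 8.06%, while 4 of the 8 glycerol genes above background on all arrays were. The share over all tested probe sets includes dim ones, so the sets are not quite alike. The median log2 fold change of the 9 was 1.26, or 0.88 with the dim gene STL1 at its lower bound, against -0.08 over all tested probe sets. The arrays average over all cells of a sample, so a change in every cell and a larger change in some of them cannot be told apart. With the length trend removed all 9 still passed as higher, while 68.9% of all tested probe sets passed and 28.8% were higher. The medians were then 1.003, with STL1 at its measured value, and -0.11. If STL1 is placed below GPD1 instead, the middle gene of the 9 is GPD1, at 0.87.

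**Figure D1:**
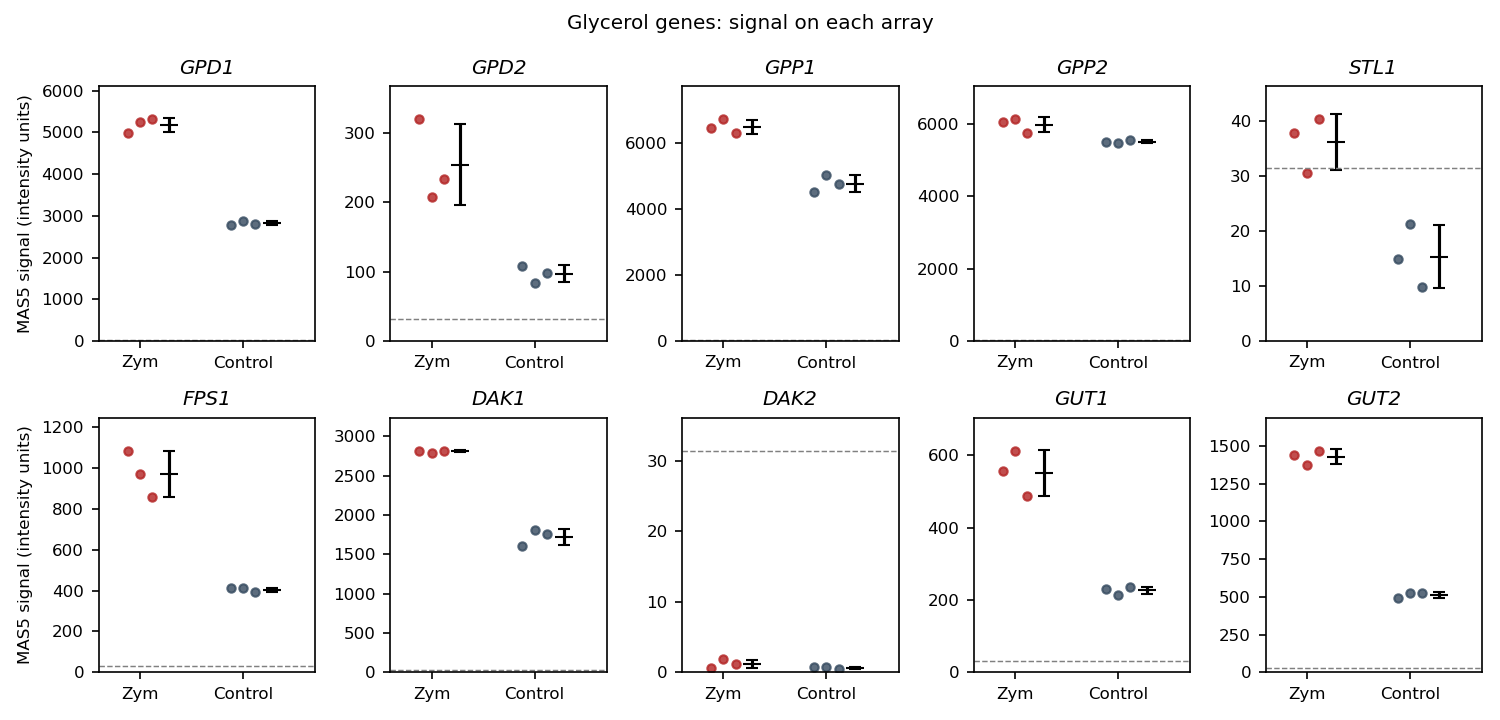
MAS5 signal (intensity units, linear axis from 0) of the 10 glycerol genes on each array, Zym on the left and Control_untreated on the right of each panel. Points are arrays, bars are mean ± SD of 3 arrays and the dashed line is the highest background of any array, 31.4. The points of the groups are separate in every panel except DAK2, which lies far below the line.

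GPD1 encodes the glycerol-3-phosphate dehydrogenase that is induced by osmotic stress and sets the rate of glycerol synthesis. Its signals were 4989.5, 5249 and 5316 on the Zym arrays, and 2789.8, 2872 and 2811 on the Control_untreated arrays. The groups were far apart and tight, with the lowest Zym array 1.74 times the highest Control_untreated array. GPD1 averaged 5185 ± 173 in Zym and 2824 ± 42.9 in Control_untreated, a log2 fold change of 0.88 ± 0.05 SE (limma adjusted p = 1.1e-08). Removing the length trend left this gene of 1176 nt at 0.87.

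GPD2, the paralog of GPD1, is known for redox balance without oxygen more than for osmotic stress. It gave 320, 209 and 235 in Zym, against 109, 83.9 and 98.7 in Control_untreated. Zym replicate 1 was well above the other two Zym arrays, yet all 3 exceeded every Control_untreated array. The log2 fold change was 1.37 ± 0.16 SE (limma adjusted p = 7.5e-06), and 1.29 with the length trend removed. GPD2 was the dimmer and the more variable of the pair, with a coefficient of variation of 22.9% in Zym and 12.9% in Control_untreated, against 3.33% and 1.52% for GPD1.

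Whether the paralogs responded differently was asked of the log2 difference GPD1 minus GPD2 within each array. It averaged 4.37 ± 0.36 in Zym and 4.87 ± 0.21 in Control_untreated, a shift of -0.50 toward the GPD2 side. The two-sided exact permutation test over 6 arrays gave p = 0.1, and 0.1 after adjustment over the 2 pairs tested, which is the smallest p that 3 against 3 arrays allow. The shift was -0.17 with 50 added to every signal (exact p = 0.5) and -0.29 without Zym replicate 1. A difference between the GPD1 and GPD2 responses was thus not established.

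GPP1 and GPP2 encode the glycerol-3-phosphate phosphatases of the last step. GPP1 gave 6464, 6719.8 and 6301 in Zym and 4510.1, 5026 and 4760.0 in Control_untreated. The groups were separated by a smaller gap than for GPD1, with a log2 fold change of 0.45 ± 0.06 SE (limma adjusted p = 1.1e-05). GPP2, the isoform known to be induced by osmotic stress, gave 6076, 6139 and 5765 in Zym, against 5506, 5475 and 5565 in Control_untreated.

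The GPP2 groups nearly touched, the lowest Zym array being 1.04 times the highest Control_untreated array. Its log2 fold change of 0.12 ± 0.05 SE only just passed (limma adjusted p = 0.046), and the call was lost in each fit without 1 array except the fit without Zym replicate 3 (adjusted p 0.0823 to 0.13 in the 5 others). Median centring (adjusted p = 0.246) and a spread model with no intensity trend (0.0801) lost it as well. Both genes are short, at 753 nt, and with the length trend removed the log2 fold changes were 0.69 for GPP1 (adjusted p = 2.9e-07) and 0.36 for GPP2 (adjusted p = 3.5e-05).

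Within arrays, the log2 difference GPP1 minus GPP2 averaged 0.12 ± 0.02 in Zym and -0.21 ± 0.08 in Control_untreated. Every Zym array lay above every Control_untreated array in this difference, whose sign by itself has no meaning since different probe sets are set against each other. The shift was 0.33 (two-sided exact permutation p = 0.1, the smallest possible, and 0.1 adjusted over the 2 pairs). As both genes have the same length, removing the length trend leaves this shift as it is, and it was between 0.29 and 0.37 with any 1 array left out. The paralogs are close in sequence, so each probe set may also detect the other transcript, and their separate values are uncertain to that extent.

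FPS1 encodes the plasma membrane channel through which glycerol leaves the cell, and which closes under hyperosmotic stress. Its signals were 1083, 969 and 859 in Zym and 410.1, 410.4 and 392 in Control_untreated. The Zym arrays were spread over a wider range than the Control_untreated arrays, but the lowest was 2.09 times the highest Control_untreated array. FPS1 averaged 971 ± 112 in Zym and 404 ± 10.8 in Control_untreated (2.39-fold, 95% CI 2.11 to 2.71, limma adjusted p = 3.5e-08). With the length trend removed the log2 fold change of this gene of 2010.0 nt was 1.003 instead of 1.26.

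STL1, the proton symporter that brings glycerol in, is repressed on glucose and strongly induced by osmotic stress. It gave 37.8, 30.5 and 40.3 in Zym and 14.9, 21.2 and 9.84 in Control_untreated. Every Control_untreated array was below its background, and so was Zym replicate 2, so that the transcript was measured above background on 2 arrays in all. Set against the background level of the Control_untreated arrays, STL1 was 1.60-fold higher in Zym. That fold is a lower bound of the point estimate and not of its interval, and Zym replicate 2 entered it with its own signal. The measured log2 fold change was 1.30 ± 0.42 SE (95% CI 0.40 to 2.20, limma adjusted p = 0.014). The call was lost without Zym replicate 3 (adjusted p = 0.0503), and with 50 added to every signal the log2 fold change was 0.40 (adjusted p = 0.00639). With the length trend removed it was 1.09 (95% CI 0.19 to 1.99, limma adjusted p = 0.033).

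GUT1 encodes glycerol kinase, the first enzyme of glycerol use. Its signals were 556, 613 and 486 in Zym and 229, 215 and 236 in Control_untreated. All Zym arrays were more than 2-fold above the highest Control_untreated array. GUT1 averaged 552 ± 63.3 in Zym and 227 ± 10.8 in Control_untreated, a log2 fold change of 1.28 ± 0.10 SE (limma adjusted p = 1.1e-07) and of 1.01 with the length trend removed.

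GUT2, the mitochondrial glycerol-3-phosphate dehydrogenase that passes electrons to the respiratory chain, had the largest fold of the 8 genes above background on all arrays. Its signals were 1442, 1371 and 1468 in Zym, against 491, 525 and 527 in Control_untreated. The lowest Zym array was 2.60 times the highest Control_untreated array, the widest gap among those 8. GUT2 rose 2.77-fold (95% CI 2.53 to 3.04, limma adjusted p = 1.1e-09), and 97.8% of all tested probe sets had a lower fold change. Once the length trend was removed, GUT2 had 1.22 instead of 1.47 on the log2 scale, and GPD2 had the largest fold of the 8.

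DAK1 and DAK2 encode dihydroxyacetone kinases, which return dihydroxyacetone, a toxic product of glycerol oxidation, to glycolysis. DAK1 gave 2818, 2794 and 2815 in Zym and 1607, 1807 and 1758 in Control_untreated. The Zym arrays were almost equal, and their lowest was 1.55 times the highest Control_untreated array. The log2 fold change was 0.71 ± 0.06 SE (limma adjusted p = 1.9e-07) and 0.49 with the length trend removed (adjusted p = 9.4e-06). DAK2 gave 0.695, 1.84 and 1.21 in Zym and 0.755, 0.759 and 0.528 in Control_untreated. All 6 values were below background, so DAK2 has no fold change here and only an upper limit, the background itself.

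**Figure D2:**
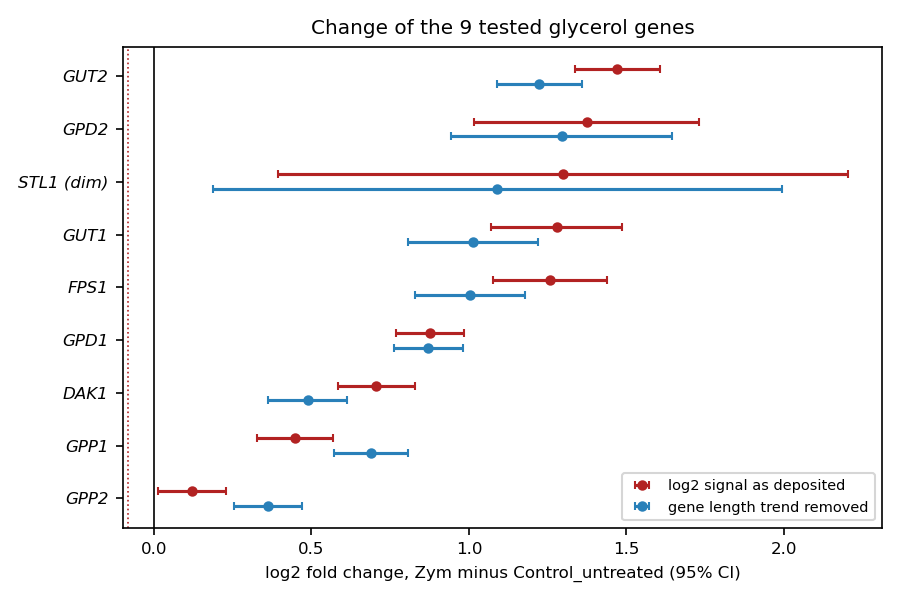
Log2 fold change, Zym minus Control_untreated, of the 9 tested glycerol genes with 95% confidence intervals from limma, from the signals as deposited (red) and with the gene length trend removed (blue). The dotted line is the median of all tested probe sets, -0.08. STL1 is marked dim because its Control_untreated arrays were below background, so its measured value gives it no rank. All intervals lie above 0, and GPP1 and GPP2 move right when the length trend is removed while FPS1, DAK1, GUT1 and GUT2 move left.

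Ordered by log2 fold change, the 8 genes above background on all arrays were GUT2 (1.47), GPD2 (1.37), GUT1 (1.28), FPS1 (1.26), GPD1 (0.88), DAK1 (0.71), GPP1 (0.45) and GPP2 (0.12). STL1 has no place in this order, since only a lower bound of its fold is known. The 95% intervals of the first 4 overlapped, and their order was not tested. Overlap or separation of intervals is only described here, since it is no test of a difference between genes measured on the same arrays. GPD1, from 0.77 to 0.98, lay below the intervals of FPS1, GUT1, GPD2 and GUT2 and overlapped that of DAK1. The interval of GPP1 lay below that of DAK1, and that of GPP2 below that of GPP1. For the GPD and GPP pairs the exact permutation test within arrays, given above, gave p = 0.1 each. Neither difference was established by it. With the length trend removed GPP1 (0.69, 95% CI 0.57 to 0.81) stood above DAK1 (0.49, 0.36 to 0.61), so that this step of the order turned round, though those intervals overlapped. The GPD1 interval, then from 0.76 to 0.98, overlapped those of FPS1, GUT1 and GPD2. It stayed below that of GUT2 and lay above that of DAK1. Removing the trend lowered the log2 fold changes of STL1, DAK1, GUT2, FPS1 and GUT1 by 0.21 to 0.27 and that of GPD2 by 0.08, and it raised those of GPP1 and GPP2.

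**Figure D3:**
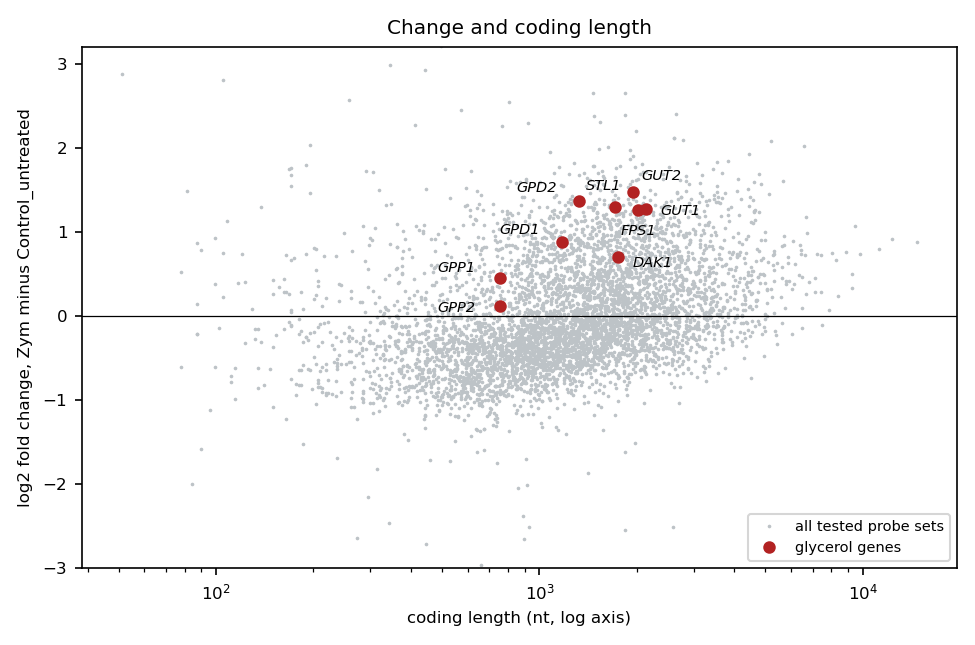
Log2 fold change, Zym minus Control_untreated, against coding length (nt, log axis) for all tested probe sets (grey) and the 9 tested glycerol genes (red); 3 probe sets lie outside the plotted range. The grey cloud rises with length, and the glycerol genes lie in or above its upper part, from 753 nt for GPP1 and GPP2 to 2130.0 nt for GUT1.

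The genes that act on the pathway from outside changed less evenly. Among 16 regulators and transport factors, 9 rose, 2 fell and 5 did not pass, with a median log2 fold change of 0.21, where 32.6% of all tested probe sets were higher and 38.9% lower. With the length trend removed 4 of the 16 rose, near the 28.8% of all tested probe sets, 1 fell, and the median was -0.03. ASK10 (RGC2), which helps to open the Fps1 channel, averaged 841 ± 61.7 in Zym and 404 ± 19.5 in Control_untreated (log2 fold change 1.06, and 0.68 with the trend removed, limma adjusted p = 4.5e-06). Its paralog RGC1 had a log2 fold change of 0.24, and of -0.12 with the trend removed, which did not pass (adjusted p = 0.086). ADR1, an activator of genes for growth on glycerol and ethanol that include GUT1, had a log2 fold change of 0.94, or 0.53 with the trend removed.

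The Ypk2 kinase gene had 0.74, or 0.48 with the trend removed. HOG1, the kinase that gives the pathway its name, and HOT1, a transcription factor that acts with it on GPD1 and STL1, were chosen for their role after their values were seen. HOG1 averaged 2644 ± 161 in Zym and 1715 ± 111 in Control_untreated, with a log2 fold change of 0.62, or 0.55 with the trend removed (limma adjusted p = 2e-06 and 5.9e-06). HOT1 averaged 167 ± 17.2 in Zym and 144 ± 25.3 in Control_untreated and did not pass (log2 fold change 0.22, adjusted p = 0.19), nor did it with the trend removed (-0.05, adjusted p = 0.8). GUP2 and INO4 were the falls, at -0.66 and -0.53. INO4, an activator of phospholipid genes, did not pass with the length trend removed (-0.20, adjusted p = 0.16).

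Among 15 tested genes that supply the carbon or turn over NADH nearby, 10 were called higher, 1 lower and 4 did not pass, with a median log2 fold change of 0.19. Over all tested probe sets 32.6% were higher and 38.9% lower. The rises were led by GLK1, glucokinase, with 1.24 (1.09 with the length trend removed), and NDE2, an external mitochondrial NADH dehydrogenase, with 1.13 (0.94). NDE2 gave 297, 226 and 255 in Zym and 114, 120 and 119 in Control_untreated. PFK2, a phosphofructokinase subunit, had 0.68 (0.35). FBA1 and TPI1, the enzymes next to dihydroxyacetone phosphate, had log2 fold changes of -0.02 and -0.04 and did not pass (limma adjusted p = 0.81 and 0.69). Without the trend FBA1 had 0.03 (adjusted p = 0.73), while TPI1 had 0.21 and passed as higher (adjusted p = 0.035). HXK2 was the fall, at -0.20. With the trend removed 11 genes rose and 3 fell, the added falls being PFK1 (-0.35, adjusted p = 0.00011) and NDE1 (-0.32, adjusted p = 0.00017), and the median was 0.28. The number of rises was 6 with median centring.

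GCY1 and YPR1 encode reductases that have been linked to oxidation of glycerol to dihydroxyacetone, the route that feeds DAK1. Both fell, unlike DAK1. GCY1 gave 1523, 1517 and 1500.4 in Zym, against 2310.1, 2138 and 2203 in Control_untreated, and YPR1 gave 3109.9, 3149 and 3062 in Zym, against 3875, 3940.4 and 3878 in Control_untreated. No Zym array reached the lowest Control_untreated array in either gene. The log2 fold changes were -0.55 ± 0.05 and -0.33 ± 0.05 SE (limma adjusted p = 9.9e-07 and 4.3e-05), and -0.42 and -0.20 with the length trend removed.

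Of 10 genes of lipid metabolism around glycerol-3-phosphate, 5 rose and 5 fell, beside 32.6% and 38.9% of all tested probe sets. Among them SLC1, ALE1, AYR1, GEP4 and CRD1 act on other lipid intermediates. The split therefore does not describe use or release of glycerol-3-phosphate alone. SCT1 and GPT2, the acyltransferases that put the first fatty acid on glycerol-3-phosphate, had log2 fold changes of 1.05 and 0.74, or 0.77 and 0.46 with the length trend removed. SCT1 averaged 807 ± 32.8 in Zym and 391 ± 26.7 in Control_untreated. GDE1, a phosphodiesterase that releases glycerol-3-phosphate from glycerophosphocholine, had 0.80 (0.42). The 5 falls were CRD1 (-0.64), AYR1 (-0.51), PGC1 (-0.41), GEP4 (-0.29) and ALE1 (-0.25). GEP4 did not pass with the length trend removed (0.02, limma adjusted p = 0.89), which left 5 rises and 4 falls.

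Of 17 tested osmotic stress genes outside glycerol metabolism, 12 rose, 1 fell and 4 did not pass, with a median log2 fold change of 0.64, beside 32.6% higher and 38.9% lower over all tested probe sets. Once the length trend was removed 14 rose and 1 fell, beside 28.8% higher, and the median was 0.67. This list was put together with earlier results of these data known. Its largest changes were those of MPC3, a mitochondrial pyruvate carrier subunit, TKL2, a transketolase, and ALD3, an aldehyde dehydrogenase, with log2 fold changes of 2.92, 1.69 and 1.59. After removal of the length trend these were 3.24, 1.43 and 1.44, and RTC3, with 1.63, came second. GRE2, a reductase, was the fall, at -0.31. HSP12 (0.04), DDR2 (0.09), HOR7 (-0.04) and PAI3 (-0.13) did not pass (limma adjusted p = 0.61, 0.14, 0.69 and 0.38). With the trend removed HSP12 (0.35) and DDR2 (0.32) passed as higher, while HOR7 (0.18) and PAI3 (0.13) did not pass.

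**Figure D4:**
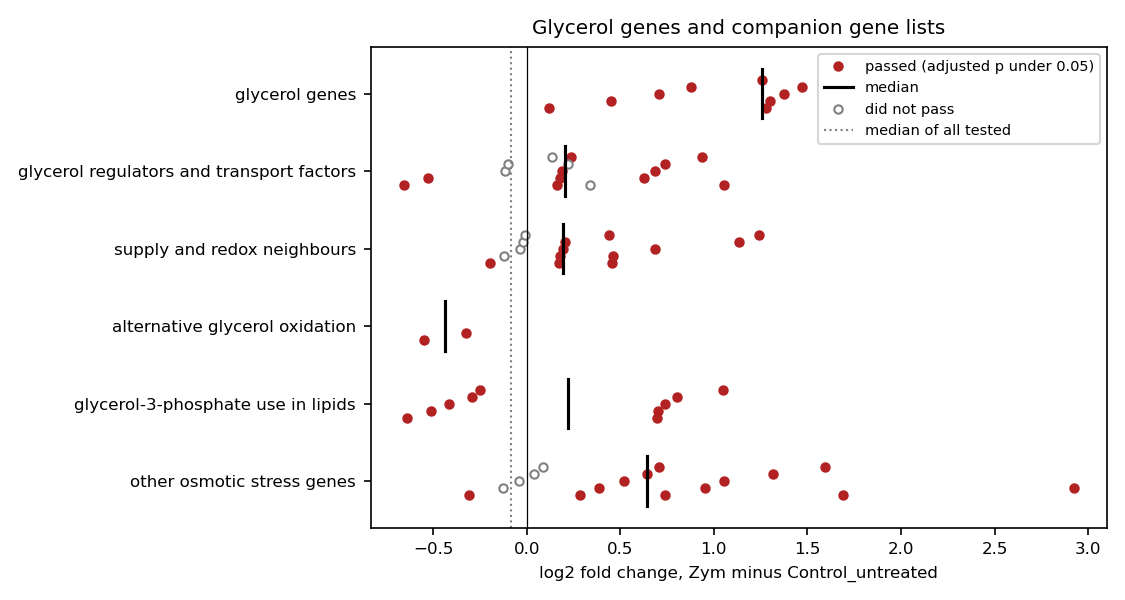
Log2 fold change, Zym minus Control_untreated, of each tested gene in the glycerol group and the 5 companion lists, with filled points for genes that passed and open points for genes that did not. Black bars are list medians and the dotted line is the median of all tested probe sets, -0.08. All 9 glycerol genes lie to the right of 0, both genes of alternative glycerol oxidation lie to the left, and the other companion lists hold genes on both sides.

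Among 5349 genes, those whose signals over the 6 arrays ran closest to GPD1, by Euclidean distance between log2 signals centred on their means, were UTH1, HIS4 and DED81, at distances of 0.05, 0.07 and 0.07. Their log2 fold changes were 0.85, 0.92 and 0.91. For GUT1 the closest were SOK2, YMR196W and IOC2, at 0.15, 0.16 and 0.18, with log2 fold changes of 1.22, 1.37 and 1.30. With 6 arrays in 2 groups this measure mostly finds genes with a fold change of the same size.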

How the data were processed

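Total RNA (about 500 ng per sample) was labelled with biotin by 3′ in vitro transcription and hybridised to Affymetrix arrays, per the labels' protocols. The authors deposited 1 linear signal intensity for each probe set, made with MAS5 (version not stated), per the submitters' processing notes. Means trimmed by 2% on either side were 500.41 to 500.43 on all arrays, so they had been scaled alike, which hides any change in the total amount of messenger RNA. The number of arrays limits the precision. No 2 of the 6 arrays held identical values.

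Probe sets were named through the platform's annotation, with genes from RefSeq (assembly R64). Of 10928 probe sets, 5498 had 1 S. cerevisiae gene, and 1747 carried genes absent from that table and were taken as the second species. Probe sets were kept if their mean signal exceeded 10.1, the 90th percentile among second-species means, which removed 104, DAK2 among them. The model for Zym minus Control_untreated was fitted to log2 signals, no offset added, in limma 3.58.1 (lmFit, eBayes with an intensity trend; R 4.3.3), with Benjamini-Hochberg adjustment over all 5394. A group was not above background on an array below the second-species 99th percentile of that array. A fold against such a group is a lower bound of the point estimate. A dim array of that group enters with that percentile or its own signal, whichever is higher. Arrays of the other group enter with their own signals. To remove the length trend, deviations from each probe set's mean were regressed on log2 gene length within each array (loess, span 0.5, degree 1). Of these lengths 96.8% are multiples of 3, so they are called coding length, introns included.

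The text names the 10 glycerol genes, the 3 largest called changes of each companion list, the 3 genes nearest to GPD1 and to GUT1, the strain markers, and a few genes chosen for their role or direction after their values were seen. The members and lists were chosen with earlier results of these data known. The DAK1 and DAK2 pair was not compared because DAK2 was below background. TDH2 and ENA1 had no probe set named to them and were not analysed here. Simulated Zym and Control_untreated arrays of 5394 probe sets were used as a test, where the fit recovered 89 of 100 log2 changes of size 1 and 64 of 100 of size 0.5, and made 4 false calls. The simulation changed 200 probe sets, with independent noise and no length trend. In the data 71.5% of probe sets passed, so these rates need not hold there. The alternatives tried were the length trend removed, each array left out, the replicate number as a block, no _s_at or _x_at probe sets, a filter at the 99th percentile or none, a spread model with no trend, median centring, quantile normalization, and 50 added before logs.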

Additional observations from a re-analysis of the deposited data

How the results depend on the processing

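All 9 tested glycerol genes had a positive log2 fold change under every alternative run. The number called higher was 9 except for 8 with median centring, without an intensity trend and with any 1 array left out, where the lost gene was GPP2 or STL1. With the length trend removed and 1 array left out, chosen after seeing the data, it was 8 or 9, and the gene lost was STL1 (adjusted p 0.0507 to 0.101). Among the 16 regulators the rises numbered 4 and the falls 1 with the length trend removed, and the list's median turned to -0.028. With 1 array left out the rises were 6 to 9, and the falls were 1 to 2, with 1 fall left without Zym replicate 2, without Control_untreated replicate 2 and without Control_untreated replicate 3. Among supply and redox genes the rises were 6 with median centring, and the falls were 2 with quantile normalization and with median centring, 3 with the length trend removed, and 1 to 2 with 1 array left out (2 without Control_untreated replicate 1). The shift of GPD1 minus GPD2 was -0.17 when 50 was added before logs, an offset that by construction pulls dim genes such as GPD2 toward no change. Other causes were not tested. Same-numbered arrays deviated together only weakly (correlations 0.05, 0.07 and 0.02), and 4 of 6 arrays correlated best with their own number. So few arrays cannot settle whether the numbers pair the samples. With the replicate block 3933 probe sets were called instead of 3857, all 9 glycerol genes were called higher, and the supply and redox falls numbered 2. Signals near background limit STL1 and leave DAK2 without a value.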

Other observations

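The genes next to the glycerol genes on their chromosomes went both ways, in shares near those of all tested probe sets (32.6% higher, 38.9% lower). Of 20 protein-coding neighbours, 16 were tested, of which 6 rose, 5 fell and 5 did not pass, with a median log2 fold change of 0.00 and a range from -1.02 to 1.19. The ends of that range, named after their values were seen, were ATG10, an autophagy gene next to FPS1, and FIT1, a wall mannoprotein gene next to STL1. ATG10 had a log2 fold change of -1.02 where FPS1 had 1.26 (limma adjusted p = 1.7e-05 for ATG10). GUT1 and FPS1 each lie beside a copy of the ribosomal protein gene RPL8, and RPL8A and RPL8B had log2 fold changes of -0.17 and 0.04, or 0.06 and 0.27 with the length trend removed. Without that trend ATG10 had -0.70 and FIT1 1.01.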
